A study of Mus musculus with 9 samples.

Results

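Glycolysis is the chain of cytosolic enzymes that splits glucose into pyruvate and yields ATP without oxygen, and lactate dehydrogenase at its end interconverts pyruvate and lactate. Neonatal cardiomyocytes rely on it more than adult ones, which take most of their energy from fatty acids. Several steps have more than one gene, and the muscle, brain, liver or general forms differ in regulation and in where they are expressed. The 10 genes described here were taken by name: the hexokinases *Hk1* and *Hk2*, the phosphofructokinases *Pfkm* and *Pfkp*, *Aldoa*, *Gapdh*, *Pgk1*, *Eno1*, *Pkm* and *Ldha*. All 10 were found in each table of gene expression, among 15146 gene symbols listed in at least 1 of the 3 tables. Rat sequences of these genes were not used here.

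The cells were neonatal rat ventricular cardiomyocytes (NRVMs), primary cells of Sprague Dawley pups 1 or 2 days old, kept in culture for 48 h, infected with an adenovirus at an MOI (viruses per cell) of 50 and collected 48 h later. The 3 groups of 3 libraries carried Adeno-LacZ, Adeno-Nrf1 or Adeno-Nrf2. Every virus used a CMV promoter, which is not specific to cardiomyocytes, in a vector that also encodes a red fluorescent protein. LacZ, a bacterial enzyme, was the control, and the coding regions of Nrf1 and Nrf2, related stress-response transcription factors, came from mouse. Both comparisons with LacZ share its libraries. The comparisons ask how each factor changes the transcriptome of these cells.

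The deposited tables hold 1 pair of groups each, with the mean normalized count of a gene in each group and no value for a single library. No SD can therefore be given, no test between samples was run here, and whether a difference exceeds the spread between the 3 libraries of a group was not tested. The ratios below are between group means of the same table. The reads behind a mean were estimated from the lowest means, which recur at 3 steps in each group, read as 1 read in each library. Depth then differed by 1.18 to 1.21 times within a group, and at least 1589 reads lay behind the mean of each of the 10 genes. The 95% intervals given with log2 ratios cover this counting error only. For *Nfe2l2*, the gene of Nrf2, the means were 3475 with LacZ and 75066 with Nrf2, and reads of the transgene cannot be told from those of the cells. *Nfe2l1*, which encodes Nrf1, was not analysed here.

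All 10 cardiomyocyte markers were well detected, with *Tnnt2* (cardiac troponin T) at a mean of 32049 in LacZ samples in the table with Nrf1. Other cells were present as well, and their RNA differed between groups. In Nrf1 samples the summed mean of 9 fibroblast markers was 25.9% of that in LacZ samples, against 50.1% for 10 leukocyte, 60.6% for 10 endothelial and 98.7% for 10 cardiomyocyte markers. In LacZ samples of that comparison, *Col1a1* gave most of the fibroblast sum (86236 of 117704) and *Eng* most of the endothelial sum (2726 of 4173). With each factor, 0 fibroblast, 1 leukocyte and 2 endothelial markers were above LacZ, beside 47.1% of all genes with Nrf1 and 49.3% with Nrf2. The cardiomyocyte sum with Nrf1 was also made of unequal values. *Actc1* (cardiac actin) had means of 34991 in LacZ and 54056 in Nrf1 samples, while the median log2 ratio of the 10 markers was -0.28. By over 1.5-fold, 3 markers were lower and 2 higher. The lower ones were *Myh7*, *Myl2* and *Tnni3*. Among all genes whose mean reached 100 in 1 or both groups, 11.9% were lower and 11.6% higher by that much. In Nrf2 samples the summed means, in the order fibroblast, leukocyte, endothelial and cardiomyocyte, were 53.2%, 49.2%, 60.3% and 112% of LacZ, and no cardiomyocyte marker differed by over 1.5-fold. None of these markers was listed at 0 in any group. In bulk RNA, fewer cells of a type and less RNA per cell cannot be told apart, and the part of this difference in the values below was not tested.

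In Nrf1 samples *Pkm* and *Pfkp* stood highest of the 10 genes against LacZ, *Ldha* was the 1 gene below its LacZ mean, and the other 7 lay between. *Pkm* encodes the pyruvate kinase of muscle and most other cells, which makes the last ATP of the chain. Its mean normalized count was 2148 in LacZ and 4204 in Nrf1 samples, 1.96-fold higher (log2 ratio 0.97, interval 0.92 to 1.01). The gene gives the M1 and M2 enzymes by splicing, and counts per gene do not separate them. *Pfkp*, the platelet form of phosphofructokinase, the committed step of the pathway, had means of 5334 and 9181 (log2 ratio 0.78, interval 0.75 to 0.81). These 2 of the 10 genes were higher by over 1.5-fold, as were 15% of all genes in the table and 11.6% of the 8562 better-expressed genes, those whose mean reached 100 in 1 or both groups. None of the 10 was lower by over 1.5-fold, as were 24.3% of all genes and 11.9% of the better-expressed ones.

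At the early steps, differences with Nrf1 were modest outside *Pfkp*. *Hk1*, the hexokinase of most tissues, had means of 4315 in LacZ and 5327.5 in Nrf1 samples, 1.23-fold higher. *Hk2*, the insulin-regulated hexokinase of muscle and heart, stood at 592 and 671, 1.13-fold higher. The muscle phosphofructokinase gene *Pfkm* had means of 922 and 1257 (log2 ratio 0.45, interval 0.37 to 0.52), which is less of a difference than for *Pfkp*. *Aldoa*, the muscle aldolase that splits the sugar into a pair of triose phosphates, had means of 11277 and 15206, 1.35-fold higher.

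At the later steps, *Gapdh*, which makes NADH, had means of 696 in LacZ and 894 in Nrf1 samples (log2 ratio 0.36, interval 0.27 to 0.45). *Pgk1*, which makes the first ATP of the chain, had means of 5756 and 7410.0 and the same log2 ratio of 0.36 (interval 0.33 to 0.39). *Eno1*, the enolase of most tissues, stood at 1643 and 1916 (log2 ratio 0.22, interval 0.16 to 0.28). *Ldha*, the lactate dehydrogenase subunit typical of glycolytic tissue, had means of 4283 and 4067, 0.950 times the LacZ mean (log2 ratio -0.07, interval -0.11 to -0.04). *Pkm* and *Ldha*, neighbours in the chain, were thus 1.04 apart on the log2 scale (interval 0.98 to 1.10).

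The 10 log2 ratios with Nrf1 had a median of 0.36, beside 0.05 for the better-expressed genes. Of the 10 genes, 9 were above their LacZ mean, as were 47.1% of all genes listed and 55.2% of the better-expressed ones. In the order of ratios, *Pkm*, *Pfkp*, *Pfkm*, *Aldoa*, *Pgk1*, *Gapdh*, *Hk1*, *Eno1*, *Hk2* and *Ldha*, the gaps between *Pfkm* and *Aldoa*, *Pgk1* and *Gapdh*, *Gapdh* and *Hk1*, and *Eno1* and *Hk2* were within counting error.

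**Figure D1:**
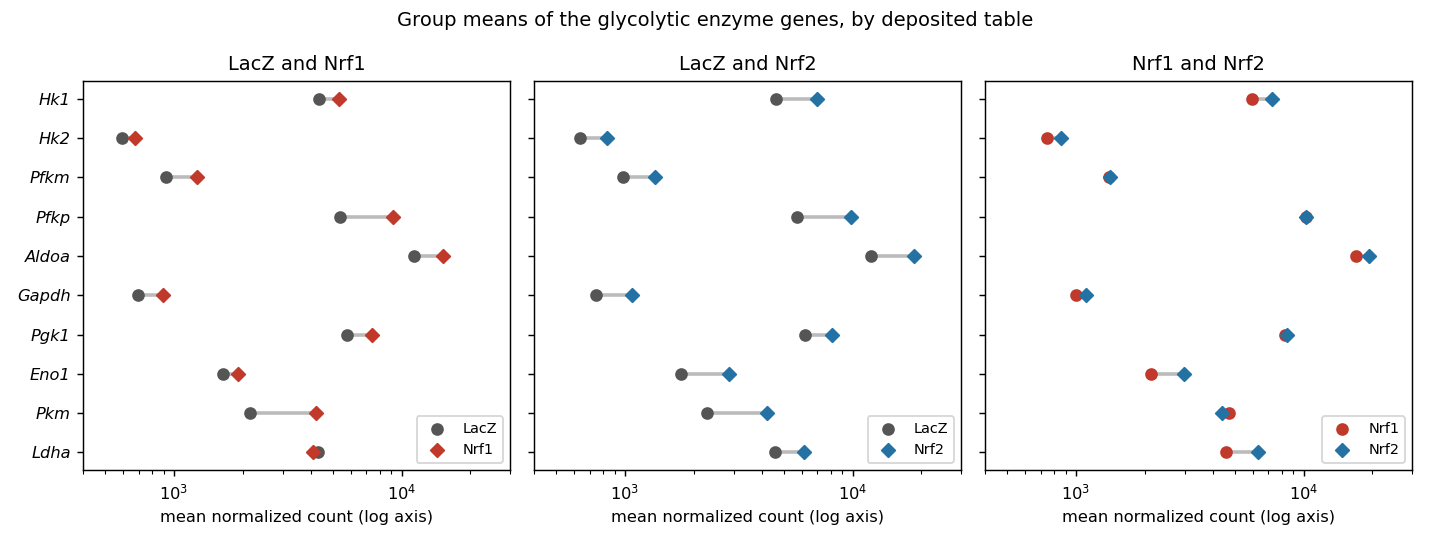
Mean normalized count on a log axis for each of the 10 genes, with 1 panel per deposited table and 1 symbol per group mean (no values of single libraries). *Pkm* has the longest line in both panels with LacZ, from 2148 to 4204 with Nrf1 and from 2294 to 4221 with Nrf2, and *Ldha* lies left of LacZ in the Nrf1 panel alone.

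With Nrf2, all 10 genes were above their LacZ means, from 1.31-fold for *Hk2* to 1.84-fold for *Pkm*, as were 49.3% of all genes and 52% of the better-expressed ones at any size. By over 1.5-fold, 5 of the 10 genes were higher, namely *Pkm*, *Pfkp*, *Eno1*, *Aldoa* and *Hk1*, as were 15.6% of all genes in the table and 7.67% of the 8673 better-expressed ones. None was lower by over 1.5-fold, as were 15.5% of all genes and 6.65% of the better-expressed ones. The median log2 ratio was 0.56, beside 0.01 for the better-expressed genes. *Hk1* and *Aldoa* were close to the limit of 0.58 on the log2 scale. When the group means were rescaled to the same sum they stood at 0.52 and 0.55 and no longer passed, and *Hk1* was also just under the limit after re-centring on the median gene.

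At the hexokinase step with Nrf2, *Hk1* had means of 4608 in LacZ and 6976 in Nrf2 samples (log2 ratio 0.60, interval 0.57 to 0.63). *Hk2* stood at 632 and 831, and its ratio was 0.20 below that of *Hk1* on the log2 scale (interval of the difference -0.30 to -0.11). *Pfkp* had means of 5695 and 9808, 1.72-fold higher, and *Pfkm* of 985 and 1354, 1.38-fold higher, so that the difference between these isoforms was 0.32 (interval 0.25 to 0.40). *Aldoa* had means of 12042.5 and 18608, 1.55-fold higher.

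Among the later steps *Gapdh* had means of 744 in LacZ and 1069.8 in Nrf2 samples, 1.44-fold higher. *Pgk1* stood at 6146 and 8095, 1.32-fold higher. *Eno1* had means of 1755 and 2871 (log2 ratio 0.71, interval 0.66 to 0.76). *Pkm* had means of 2294 and 4221 (log2 ratio 0.88, interval 0.84 to 0.92), again the highest of the 10. *Ldha* had means of 4573 and 6080.4, above LacZ in these samples (log2 ratio 0.41, interval 0.38 to 0.44). All 10 genes were above LacZ by over 1.2-fold with Nrf2, as were 27.9% of all genes listed and 22.7% of the better-expressed ones. With Nrf1, 7 of the 10 were, as were 29.1% of all genes and 30.4% of the better-expressed ones. In the order by ratio, the 6 gaps from *Aldoa* through *Hk1*, *Gapdh*, *Pfkm*, *Ldha* and *Pgk1* to *Hk2* were all within counting error.

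**Figure D2:**
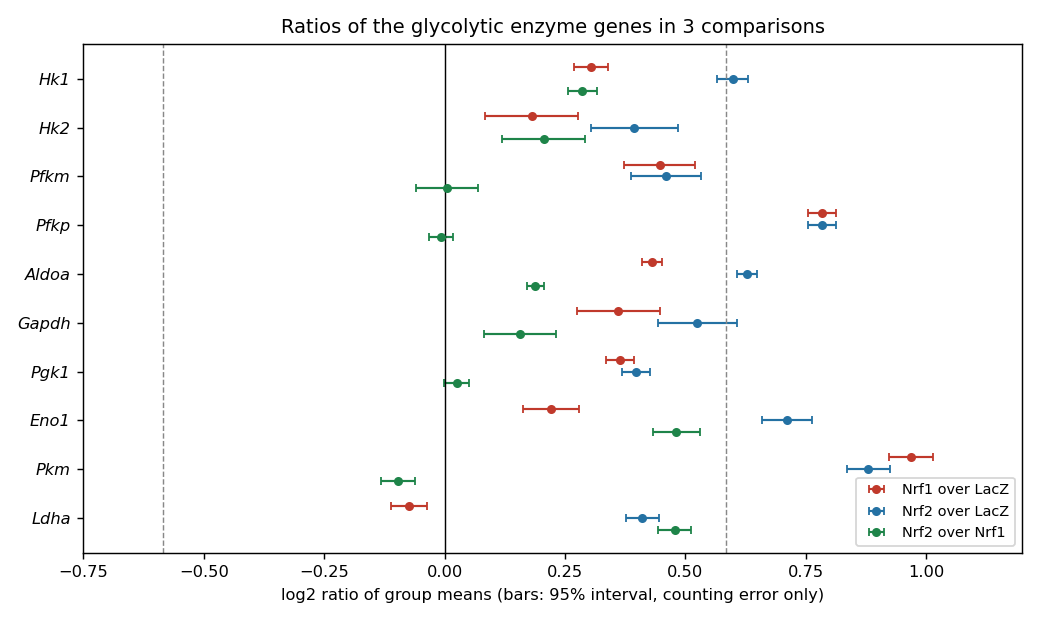
Log2 ratio of group means for each gene in the 3 comparisons, with bars for the 95% interval of counting error and dashed lines at a 1.5-fold difference. *Pfkp* has the same ratio of 0.78 over LacZ with each factor, while *Ldha* stands at -0.07 with Nrf1 and 0.41 with Nrf2, and *Eno1* at 0.22 and 0.71.

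The direct table of Nrf1 and Nrf2 samples shows where the factors differed, and its ratios do not involve LacZ samples. None of the 10 genes differed by over 1.5-fold in either direction, while 20.1% of all genes listed were higher and 8.72% lower by that much with Nrf2, and 7.5% and 4.24% of the better-expressed ones were. At any size 8 of the 10 were above their Nrf1 means, as were 52.4% of all genes and 45.3% of the better-expressed ones. The genes furthest apart were *Eno1*, with means of 2137 in Nrf1 and 2983 in Nrf2 samples (log2 ratio 0.48, interval 0.43 to 0.53), and *Ldha*, with means of 4538 and 6318 (log2 ratio 0.48, interval 0.44 to 0.51). *Hk1* followed with 5944 and 7249, 1.22-fold higher with Nrf2. These 3 genes were higher by over 1.2-fold, as were 32.7% of all genes and 20% of the better-expressed ones.

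Smaller differences in favour of Nrf2 were those of *Hk2*, with 749 and 863, *Aldoa*, with 16965 and 19335, and *Gapdh*, with 998 and 1112. Their log2 ratios were 0.21, 0.19 and 0.16. For *Pgk1*, *Pfkm* and *Pfkp* the intervals included 0. *Pgk1* had means of 8267 and 8412 (interval -0.0017 to 0.05), *Pfkm* of 1402 and 1407 (interval -0.06 to 0.07), and *Pfkp* of 10244 and 10191.5 (interval -0.03 to 0.02). *Pkm* was the gene furthest below its Nrf1 mean, with 4691 in Nrf1 and 4386 in Nrf2 samples (log2 ratio -0.10, interval -0.13 to -0.06). The median of the 10 log2 ratios was 0.17, beside -0.03 for the better-expressed genes.

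**Figure D3:**
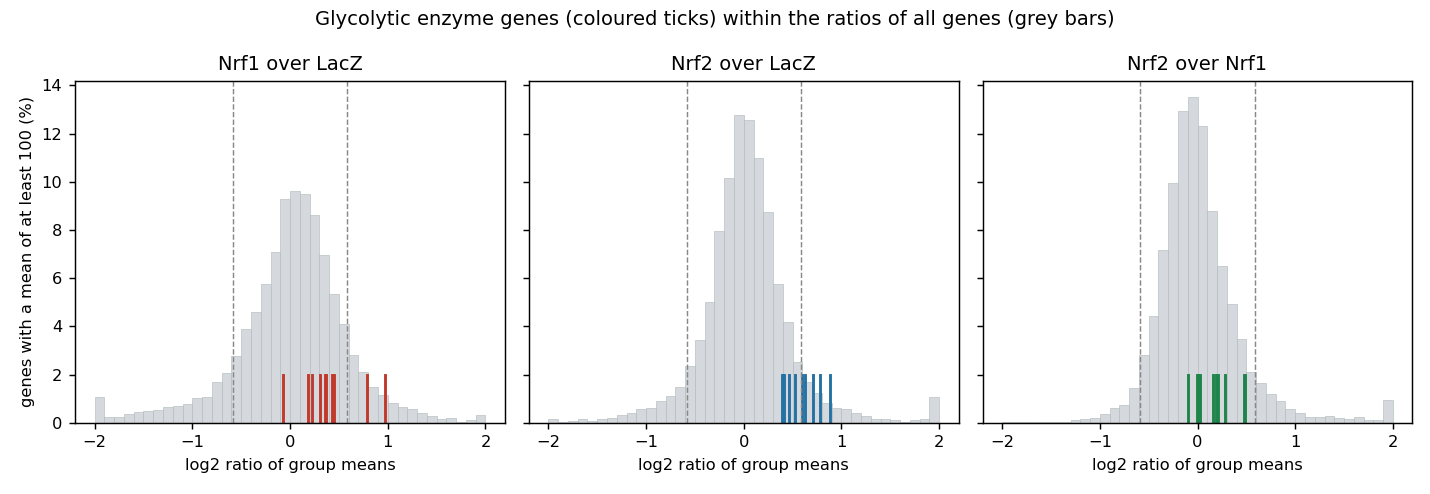
Percent of better-expressed genes by log2 ratio (grey bars of width 0.1, values beyond the axis placed in the end bars), with a coloured tick for each of the 10 genes and dashed lines at a 1.5-fold difference. All 10 ticks lie right of the upper quartile of 0.24 for Nrf2 over LacZ, 6 of 10 lie right of that of 0.33 for Nrf1 over LacZ, and no tick lies beyond a dashed line for Nrf2 over Nrf1.

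The same enzymatic steps have 16 other genes on a list set up alongside the 10, of which *Hkdc1* was not analysed here. Of the other 15, 3 were higher and 1 was lower than LacZ by over 1.5-fold with Nrf1, and 7 were higher and 1 was lower with Nrf2, low genes included. Among the 9 better-expressed genes of the list in the Nrf1 table, the median log2 ratio was 0.12, and among 10 in the Nrf2 table it was 0.46. The phosphoglycerate mutase gene *Pgam1*, which acts between *Pgk1* and *Eno1*, had means of 5955 in LacZ and 11888.5 in Nrf1 samples (log2 ratio 1.00, interval 0.97 to 1.02) and of 6359 and 10575 with Nrf2 (log2 ratio 0.73). It was thus as high over LacZ as *Pkm* was with Nrf1, and below its Nrf1 mean with Nrf2 in the direct table (log2 ratio -0.27, interval -0.29 to -0.25). *Gpi*, which turns glucose phosphate into fructose phosphate, had log2 ratios of 0.47 with Nrf1 and 0.92 with Nrf2. *Tpi1*, which interconverts both triose phosphates, had 0.53 and 0.79.

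Other isoforms of the steps held by the 10 genes differed in direction. *Pfkl*, the liver phosphofructokinase, had log2 ratios of 0.23 with Nrf1 and 0.60 with Nrf2. *Ldhb*, the heart subunit of lactate dehydrogenase, followed the pattern of *Ldha*, with means of 5529 in LacZ and 4969.9 in Nrf1 samples, and of 5904 and 7341 in the table with Nrf2. The difference between the log2 ratios of *Ldha* and *Ldhb* was 0.08 with Nrf1 and 0.10 with Nrf2. *Eno3*, the muscle enolase, was below LacZ in both tables, where *Eno1* was above, with log2 ratios of -0.20 (interval -0.27 to -0.12) and -0.36 (interval -0.44 to -0.28). The muscle mutase gene *Pgam2* stood at -0.26 with Nrf1 (interval -0.53 to 0.01) and at 0.63 with Nrf2 (interval 0.40 to 0.85).

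*Hk3*, a hexokinase of myeloid blood cells, had means of 114 in LacZ and 51.1 in Nrf1 samples (log2 ratio -1.15) and of 121 and 52.6 with Nrf2 (log2 ratio -1.21). The leukocyte markers had median log2 ratios of -1.37 and -1.14 in the same tables. In each, 9 of 10 were lower by over 1.5-fold, beside 24.3% of all genes with Nrf1 and 15.5% with Nrf2. The part of leukocytes in the *Hk3* values was not tested. *Aldoc*, the brain aldolase, stood at 38.5 in LacZ and 31.9 in Nrf1 samples, and at 41.2 and 85.8 with Nrf2 (log2 ratio 1.06, interval 0.73 to 1.39). The neuronal enolase *Eno2* stood below 100 in all groups, with log2 ratios of 0.36 and 0.18 whose intervals with Nrf1 (0.01 to 0.70) and Nrf2 (-0.16 to 0.52) were wide. *Pklr*, the liver and red cell pyruvate kinase, was listed at 0 in LacZ samples and at 1.93 in Nrf1 and 0.914 in Nrf2 samples.

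**Figure D4:**
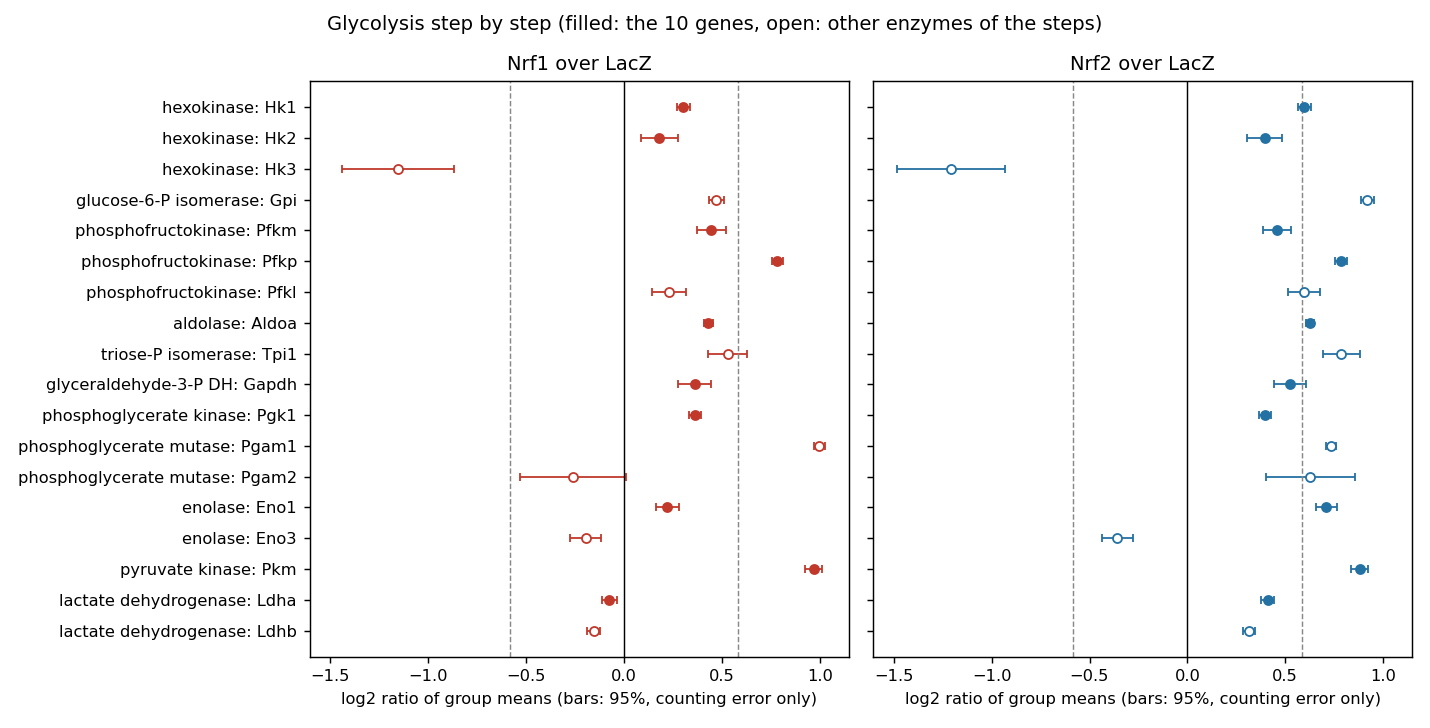
Log2 ratio over LacZ along the pathway, from hexokinase at the top to lactate dehydrogenase at the bottom, for the 10 genes (filled) and other better-expressed enzymes of the steps (open; *Pgam2* reached it in the Nrf2 table alone), with 95% intervals of counting error and dashed lines at a 1.5-fold difference. *Hk3* and *Eno3* lie left of 0 in both panels, and *Pgam1* stands beside *Pkm* on the right with Nrf1.

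Enzymes and carriers that feed or drain the chain were set beside the 10 genes. *Slc2a1*, the basal glucose carrier, had means of 887 in LacZ and 1221 in Nrf1 samples (log2 ratio 0.46), and of 948 and 1975 with Nrf2 (log2 ratio 1.06, interval 0.99 to 1.13). In the direct table it was 1.51-fold higher in Nrf2 samples. *Slc16a3*, a carrier through which glycolytic cells export lactate, was higher with Nrf1, with means of 932 and 1828 (log2 ratio 0.97), than with Nrf2, with means of 995 and 1354 (log2 ratio 0.44), and it was below its Nrf1 mean with Nrf2 (log2 ratio -0.54, interval -0.60 to -0.48). *Slc2a8*, an intracellular glucose carrier, was below LacZ with each factor (log2 ratio -0.56, interval -0.82 to -0.31, with Nrf1 and -0.84, interval -1.10 to -0.58, with Nrf2). Of the 10 carrier genes, low genes included, 3 were higher and 2 lower than LacZ by over 1.5-fold with Nrf1, and 2 were higher and 3 lower with Nrf2. Over all genes, 15% were higher and 24.3% lower with Nrf1, and 15.6% and 15.5% with Nrf2. Of 6 better-expressed carriers with Nrf1, 1 was higher and 0 lower, beside 11.6% and 11.9% of all better-expressed genes. Of 7 with Nrf2, 1 was higher and 1 lower, beside 7.67% and 6.65%.

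*Tigar*, whose product breaks down the sugar phosphate that activates phosphofructokinase, had means of 217 in LacZ and 384 in Nrf1 samples (log2 ratio 0.82), and of 232 and 504 with Nrf2 (log2 ratio 1.12). Of the other 4 genes for making or degrading that activator, *Pfkfb1* was higher by over 1.5-fold with each factor, at means under 100. At the entry of pyruvate into mitochondria, 2 of 15 genes were higher by over 1.5-fold with Nrf1 and 2 with Nrf2, beside 11.6% and 7.67% of the better-expressed genes, to which all 15 belong. These were *Pdk2*, a kinase that inhibits pyruvate dehydrogenase (log2 ratios 0.66 and 0.73), and *Pc*, pyruvate carboxylase, which makes oxaloacetate (0.67 and 1.36). *Pdk3* stood at -0.63 with Nrf1 and -0.19 with Nrf2, and *Pdha1*, the catalytic subunit of pyruvate dehydrogenase, stood at -0.15 and 0.19.

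**Figure D5:**
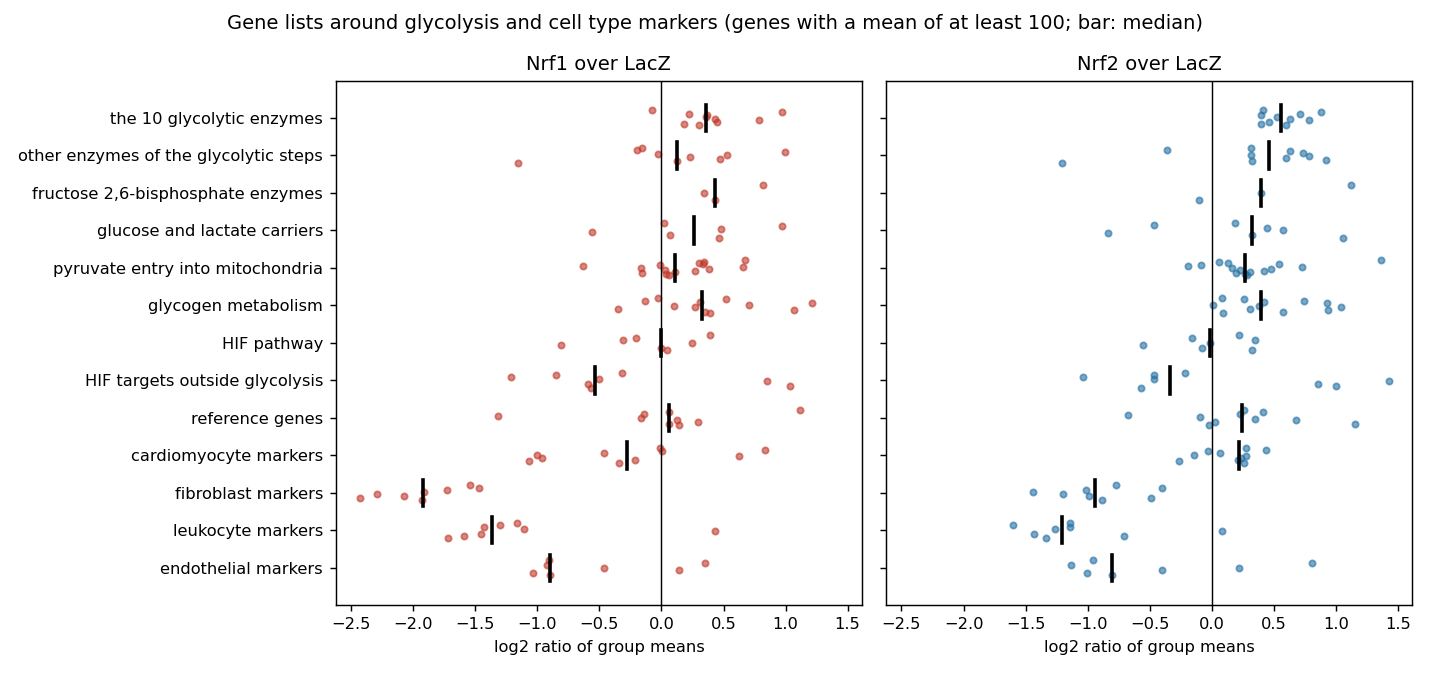
Log2 ratio over LacZ of each better-expressed gene (points) and the list median (black bar) for the 10 glycolytic enzymes, the lists around them, reference genes and cell type markers. The bar of the 10 enzymes stands at 0.36 with Nrf1 and 0.56 with Nrf2, while that of the fibroblast markers stands at -1.92 and -0.94.

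*Gapdh*, *Pgk1*, *Ldha*, *Eno1*, *Aldoa* and *Pkm* belong to families with many processed pseudogenes in rodents, and reads that match a copy as well as the gene may be lost or split in counting. Their means are therefore uncertain as levels. A pseudogene row *Gapdh-ps1* was listed at means of 2.32 in LacZ and 3.07 in Nrf1 samples.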

How the data were processed

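RNA of NRVMs was sequenced in 9 libraries, 3 per group. The organism field of the labels names mouse, while the cell type, strain and genome build are rat. Per the paper's methods and the submitters' processing notes, the authors checked 75-bp single-end stranded reads with FastQC 0.11.4, aligned them to Rnor_6.0 with HISAT2 2.0.4, removed duplicates (SAMtools 0.1.18) and obtained counts per gene from featureCounts 1.6.0. Duplicate removal can lower strong genes, and this was not tested. The signal in the deposited tables is taken to be the group mean of counts divided by size factors, made separately for each pair of groups. Levels were therefore compared within a table only. The paper names edgeR 3.20.5 for its differential expression analysis, and which program made these means is not known here. The tables also hold the authors' fold changes, p-values and adjusted p-values, which were not used.

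Ratios of group means were computed with Python 3.11.15 and pandas 2.3.3, and genes were called at a fold limit of 1.5, without a test. Reads behind a mean were taken as the mean divided by the highest of the 3 steps, and intervals as 1.96 Poisson standard errors. Depth per library is otherwise unknown. The calls and steps were also run on simulated counts with set changes well past the fold limit and counting error only. That run cannot show how the calls fare near the limit or with spread between libraries. The 10 genes and 13 other lists were chosen with earlier results of these data known. Named from the other lists were isoforms of the steps and genes with a mean of at least 100 that differed by over 1.5-fold, at most 4 per direction. A gene so named is given in both comparisons with LacZ, and a few genes of these lists are not reported here. *Tnnt2*, *Gapdh-ps1*, *Rpia*, *Rpe*, *Pgls*, *Pfkfb1*, *Pdha1*, *Hif1a* and *Actb* are outside this rule and were chosen after their values were seen. Alternatives were fold limits of 1.2 and 2, minimum means of 10 and 100, re-centring, rescaling to equal sums, a pseudocount of 1 and, for Nrf2 over Nrf1, the difference of the ratios over LacZ.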

Additional observations from a re-analysis of the deposited data

How the results depend on the processing

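With a fold limit of 1.2 in place of 1.5, the number of the 10 genes higher than LacZ was 7 with Nrf1 and 10 with Nrf2, and 3 were above their Nrf1 means with Nrf2. With a limit of 2 it was 0 for both factors, beside 7.66% of all genes with Nrf1 and 9.95% with Nrf2. With group means rescaled to the same sum, 3 genes passed the limit of 1.5 with Nrf2, beside 14.0% of all genes. The median log2 ratio was then 0.30 with Nrf1 and 0.48 with Nrf2. Re-centred on the median gene, the median with Nrf1 was 0.31, and 4 genes passed with Nrf2, beside 15.2% of all genes. The medians of Nrf2 over Nrf1 moved by at most 0.03, and no gene was lower by over 1.5-fold at any setting. Each of the 10 genes kept the sign of its ratio over LacZ under re-centring and rescaling. For Nrf2 over Nrf1, 9 of 10 did under each of these settings and with the difference of the ratios over LacZ, which moved no ratio by more than 0.0080. The exceptions were *Pfkp*, and *Pfkm* under rescaling, whose intervals include 0. No paired analysis was possible because the tables hold group means that carry no replicate numbers, and for the same reason no library could be left out. Counting error is at most 0.10 on the log2 scale for the 10 genes and covers some of the gaps between genes, and the spread between libraries is unknown.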

Other observations

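In glycogen metabolism, *Gbe1*, the branching enzyme, had log2 ratios over LacZ of 1.07 with Nrf1 and 0.94 with Nrf2, and *Pygm*, the muscle phosphorylase that releases glucose phosphate, 1.21 and 0.93. *Pgm1*, which links glycogen to glycolysis, had means of 1681 in LacZ and 2028 in Nrf1 samples, and of 1795 and 3682 with Nrf2 (log2 ratio 1.04). Of the 13 glycogen genes, 3 were higher by over 1.5-fold with Nrf1 and 4 with Nrf2, and 0 were lower with either. The shares of all genes were 15% higher and 24.3% lower with Nrf1, and 15.6% and 15.5% with Nrf2. In the pentose phosphate pathway, which yields NADPH, 3 of 7 genes were higher by over 1.5-fold with Nrf1 and 4 with Nrf2. The shares of better-expressed genes, to which all 7 belong, were 11.6% and 7.67%. The median log2 ratios of the 7 genes were 0.08 and 0.96. *Pgd* had log2 ratios of 1.34 and 2.07 and *Taldo1* of 1.10 and 1.98, while *Rpia*, *Rpe* and *Pgls* lay between -0.23 and 0.04 in both tables. *Tkt*, which returns pentoses to glycolysis, stood at 0.08 with Nrf1 and 0.96 with Nrf2, and was above its Nrf1 mean with Nrf2 (log2 ratio 0.87, interval 0.83 to 0.91).

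Hypoxia-inducible factor (HIF) is the best known activator of glycolytic genes. Its part in the ratios of the 10 genes was not tested, and RNA values do not give the level or activity of its protein. *Hif1a* itself had log2 ratios of 0.04 with Nrf1 and 0.33 with Nrf2. *Epas1*, another HIF gene, had means of 540 in LacZ and 308 in Nrf1 samples (log2 ratio -0.81), and a log2 ratio of -0.55 with Nrf2. Of 10 HIF target genes outside glycolysis, low genes included, 2 were higher and 4 lower than LacZ by over 1.5-fold with Nrf1. With Nrf2, 3 were higher and 2 lower. Over all genes, 15% were higher and 24.3% lower with Nrf1, and 15.6% and 15.5% with Nrf2. The medians over the 8 genes with a mean of at least 100 were -0.54 and -0.34. *Bnip3*, a mitophagy receptor, and *Adm*, adrenomedullin, were higher with each factor, while *P4ha2*, a collagen prolyl hydroxylase, stood at -1.21 and -1.04. The better-expressed fibroblast markers had medians of -1.92 and -0.94, and their part in the *P4ha2* values was not tested. *Ndrg1* was lower with Nrf1 (log2 ratio -0.59) and higher with Nrf2 (0.85). The HIF genes and targets named here were among those past 1.5-fold, except *Hif1a*, which was chosen after its value was seen.

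*Gapdh* and *Pgk1* are often used as reference genes in qPCR, and they stood 1.28-fold and 1.29-fold above LacZ with Nrf1 and 1.44-fold and 1.32-fold above it with Nrf2. *Actb*, another reference gene, chosen after its value was seen, had log2 ratios of 0.14 and -0.02. The log2 ratio of *Gapdh* was 0.22 above that of *Actb* with Nrf1 (interval 0.13 to 0.31) and 0.54 above it with Nrf2 (interval 0.46 to 0.63). On a list of 10 other reference genes, *Hprt1* had log2 ratios of 0.16 with Nrf1 and 1.15 with Nrf2, *Ppia* had 0.29 and 0.68, and *Gusb*, a lysosomal hydrolase, was lower with each (-1.32 and -0.68).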
